A study of Mus musculus with 9 samples.

Results

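The comparison described is that of MCC950 against no treatment in naive CD4+ T cells of the spleen, and its members were chosen by sample label and not by any measured value. It holds 6 of the 9 libraries of the series, and all 55487 annotated genes were read in each. The untreated group was 3 libraries of cells from wild-type (WT) C57BL6/J mice with no treatment. The MCC950 group was 3 libraries of the same cell type from mice of that strain and genotype, treated in vivo with MCC950 for 10 consecutive days. The other 3 libraries of the series, from WT C57BL6/J mice treated in vivo with anti-IL-1b antibodies for 10 consecutive days, entered the shared estimate of spread and are shown where the treatments were tested against each other. The labels give no vehicle, dose, sex, age, sort gate or batch, and do not say whether libraries of 1 group are from different mice. The p-values therefore measure only how far these libraries spread, and that spread may be technical.

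Naive CD4+ T cells are helper T cells before their first encounter with antigen. They recirculate between blood and lymphoid organs and are held in a quiescent state by factors of the KLF, FOXO and BTG families. NLRP3 is a sensor protein of myeloid cells that assembles with the adaptor ASC and with caspase-1 into an inflammasome, which matures IL-1b. MCC950 is a small-molecule inhibitor of NLRP3. Immediate early genes such as those of AP-1, EGR and NR4A factors are transcribed within minutes of T cell receptor signalling or stress, and heat shock genes answer unfolded proteins. Their transcripts are short-lived or quickly induced.

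The libraries held 17335367 to 21394797 expected counts in the untreated group and 16769960 to 18497827 in the MCC950 group. Levels below are CPM, counts scaled to 1000000 of each library's TMM-adjusted total, and errors of levels are SD over 3 libraries. A gene was called at an adjusted p under 0.05 (edgeR quasi-likelihood test, Benjamini-Hochberg over 13374 genes). Called were 4921 genes (36.8%), of which 2369 were higher (17.7% of the genes tested) and 2552 lower (19.1%) with MCC950. The groups did not overlap in 4703 of the 4921. Calls and overlap rest on the same values, so this count is no separate support for the calls. By library totals 71.6% of the called genes were higher, against 48.1% by TMM, and the median of all genes moved from 0.012 to 0.125 on the log2 scale. On log2(TPM + 1) 66.5% of the called genes were higher. Most differences were small, with an absolute log2 fold change under 0.5 in 3324 called genes (67.5%). At 2-fold or more, 380 genes were higher (2.84% of those tested) and 380 lower (2.84%). The sets differed in level. Of the 380 higher genes, 264 had an untreated mean under 1 CPM and 13 had both means at 10 CPM or more. Of the 380 lower genes, 135 had an MCC950 mean under 1 CPM and 128 had both means at 10 CPM or more. An untreated mean of 100 CPM or more was seen in 82 lower genes, against 2 higher genes that reached 100 CPM with MCC950. Transcripts of 100 CPM or more were thus common among the 2-fold falls and rare among the 2-fold rises.

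**Figure D1:**
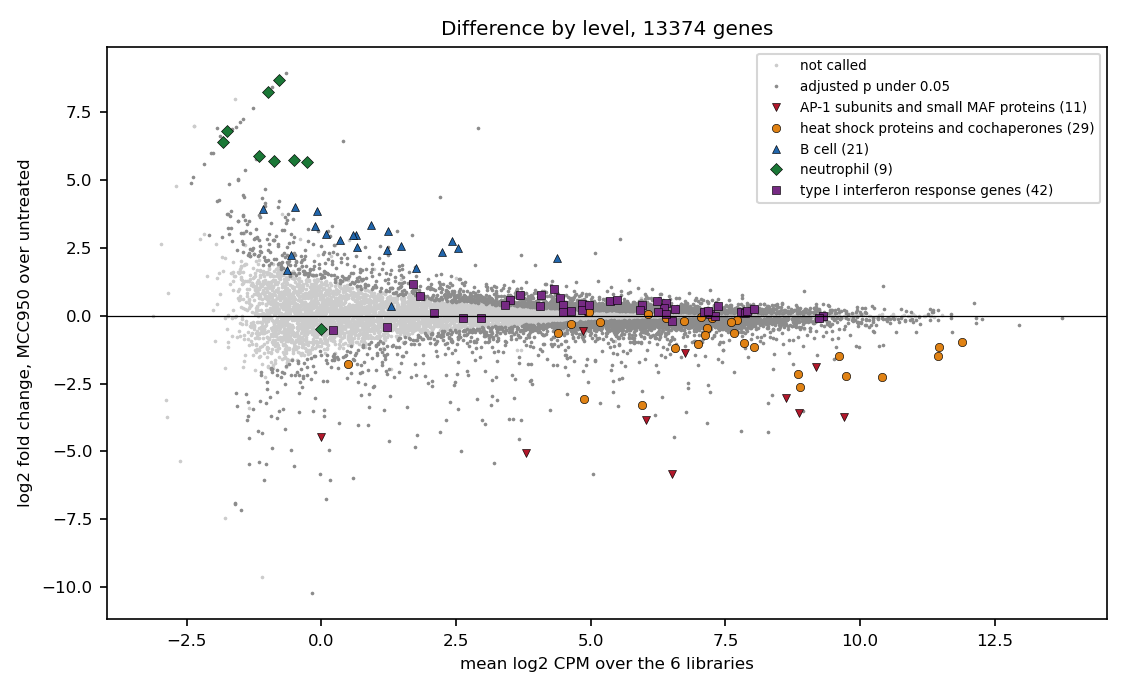
Log2 fold change of MCC950 over untreated (vertical axis) against the mean log2 CPM of the 6 libraries (horizontal axis) for 13374 genes, with 5 gene lists marked and their tested members counted in the legend. AP-1 and heat shock members lie below 0 at high levels, B cell and neutrophil markers above 0 at low levels. The fitted value of a gene with 0 counts in 1 group depends on the prior count.

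The cells carried the transcripts that define them in both groups. Cd4, the helper T cell co-receptor (chromosome 6, 124864692 to 124888221, minus strand), stood at 859, 839.8 and 851 CPM in the untreated libraries and 829, 824 and 818 CPM in the MCC950 libraries. It was not called (log2 fold change -0.05 ± 0.03, adjusted p = 0.163), and its sign turned under library totals (0.07) and on log2(TPM + 1) (0.03). Cd3e, a signalling chain of the T cell receptor complex, rose from 342 ± 3.43 to 397 ± 3.13 CPM (log2 fold change 0.22 ± 0.03, adjusted p = 2.50e-07). Ccr7, the receptor for lymph node chemokines, was lower. It read 649.8, 641 and 665 CPM in the untreated libraries and 442, 441 and 448 CPM in the MCC950 libraries and did not overlap between groups (log2 fold change -0.55 ± 0.03, adjusted p = 3.15e-19). Il7r, the receptor chain for the survival cytokine IL-7, was not called (585 ± 10.8 to 561 ± 17.5 CPM, adjusted p = 0.131). Cd44, a surface marker that rises on antigen-experienced cells, fell from 27.3 ± 0.972 to 22.2 ± 2.83 CPM (log2 fold change -0.30 ± 0.10, adjusted p = 0.0161), a call lost under library totals, on log2(TPM + 1), without untreated replicate 2 and without MCC950 replicate 3. The 10 naive CD4 markers summed to 7259 to 7350 CPM per untreated library and 6595 to 6622 CPM per MCC950 library, and all were above 0.

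Many of the most strongly lowered transcripts were those of immediate early factors. Fosb, a FOS-family partner within AP-1 dimers (chromosome 7, 19302696 to 19310051, minus strand), read 688, 670.1 and 702 CPM in the untreated libraries and 13.0, 10.4 and 12.7 CPM in the MCC950 libraries. All MCC950 libraries lay far below all untreated ones (log2 fold change -5.84 ± 0.05, adjusted p = 1.76e-45). Of the AP-1 and small MAF list, 10 of 11 tested members were lower and 0 higher, against 19.1% lower and 17.7% higher among all genes tested. The list's median log2 fold change was -3.60, beside 0.01 over all genes. In bulk RNA, fewer cells with a transcript and less of it per cell cannot be told apart. The summed level of the list's 14 genes was 8103 to 8280 CPM in untreated libraries and 930 to 976 CPM in MCC950 libraries. Junb and Jun, partners of the FOS proteins, were among the 8 largest losses in CPM. Junb read 3048, 3017 and 3114 CPM in the untreated libraries and 238, 211 and 236 CPM in the MCC950 libraries (log2 fold change -3.74 ± 0.07, adjusted p = 1.37e-08). Jun (chromosome 4, 95049034 to 95052222, minus strand) read 1611, 1629 and 1615 CPM in the untreated libraries and 138, 132 and 129.6 CPM in the MCC950 libraries (log2 fold change -3.60 ± 0.03, adjusted p = 5.65e-45). Fos (chromosome 12, 85473890 to 85477273, plus strand) fell from 1117 ± 6.25 to 138 ± 2.02 CPM (log2 fold change -3.02 ± 0.03, adjusted p = 1.78e-43), Fosl2 from 246 ± 9.63 to 17.1 ± 0.424 CPM (log2 fold change -3.84 ± 0.06, adjusted p = 4.46e-36) and Maff, a small MAF partner, from 79.7 ± 6.63 to 2.41 ± 0.773 CPM (log2 fold change -5.04 ± 0.17, adjusted p = 2.12e-14). These 6 genes did not overlap between groups. Mafg was the tested member that was not called.

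**Figure D2:**
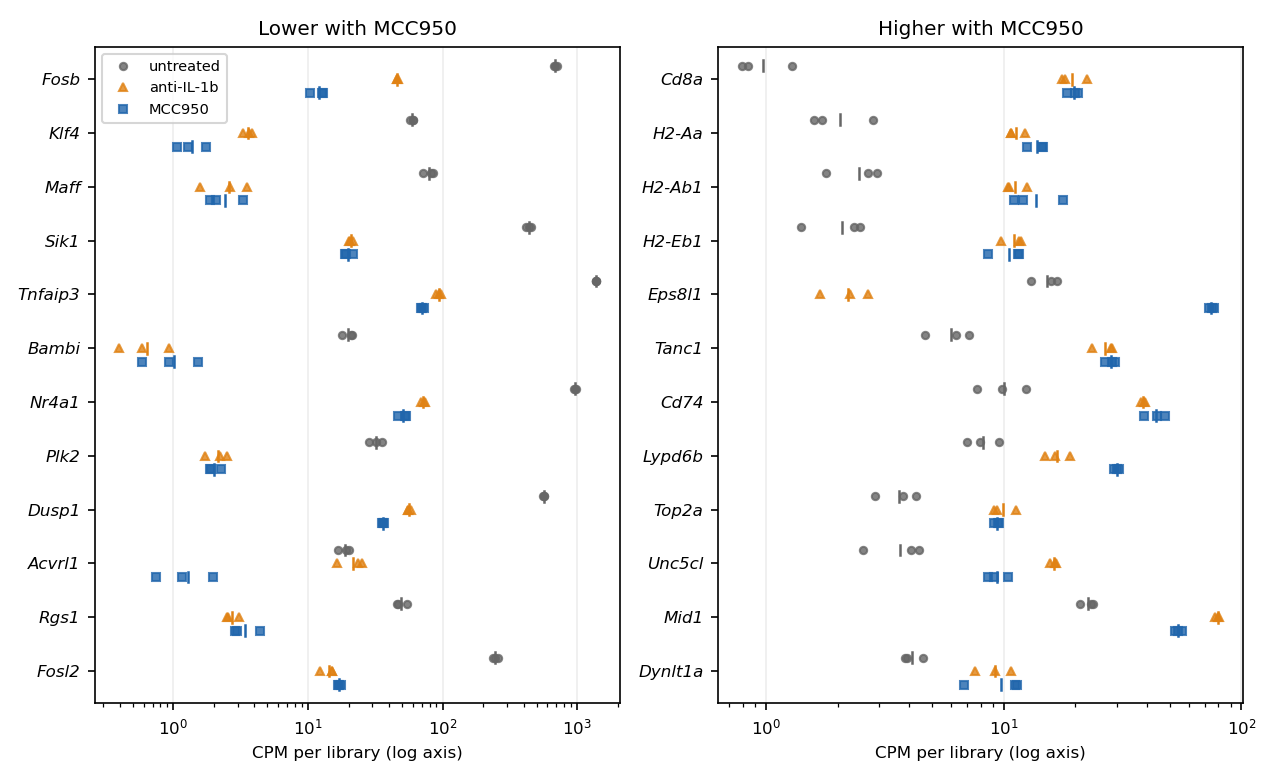
CPM of each library (points, log axis) and group mean (tick) for the 12 largest named falls (left) and 12 largest named rises (right) in all 3 groups. These are untreated, anti-IL-1b and MCC950 libraries. Unnamed genes were passed over here and below, 9 among the rises and 3 among the falls. The falls start from up to 1388 CPM (Tnfaip3), whereas the rises end at or below 76.6 CPM (Eps8l1).

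Promoter sequence from RefSeq (GRCm38.p6, the build of mm10) is shown for the first 4 of the 12 largest falls whose window held any of 5 searched motifs, chosen after the search, so that the letters behind the motif counts can be read. Each runs from 250 bases before the annotated start through the first 10 bases from it, 5′ to 3′ on the gene's strand, with matches in capitals. Klf4 and Maff held no match, Sik1 was not in the promoter table, and Bambi was passed over.
Fosb (chr7:19310036-19310295, minus strand): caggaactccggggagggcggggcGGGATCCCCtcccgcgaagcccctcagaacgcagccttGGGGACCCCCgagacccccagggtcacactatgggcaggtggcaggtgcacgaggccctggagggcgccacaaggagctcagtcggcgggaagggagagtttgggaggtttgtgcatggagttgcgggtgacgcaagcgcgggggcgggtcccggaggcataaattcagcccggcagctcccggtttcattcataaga
Tnfaip3 (chr10:19015401-19015660, minus strand): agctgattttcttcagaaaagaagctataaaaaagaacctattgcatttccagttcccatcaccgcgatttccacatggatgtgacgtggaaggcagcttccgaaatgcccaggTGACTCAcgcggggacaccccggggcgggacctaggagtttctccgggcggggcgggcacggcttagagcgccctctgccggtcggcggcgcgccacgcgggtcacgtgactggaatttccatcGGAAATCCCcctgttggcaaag
Nr4a1 (chr15:101266596-101266855, plus strand): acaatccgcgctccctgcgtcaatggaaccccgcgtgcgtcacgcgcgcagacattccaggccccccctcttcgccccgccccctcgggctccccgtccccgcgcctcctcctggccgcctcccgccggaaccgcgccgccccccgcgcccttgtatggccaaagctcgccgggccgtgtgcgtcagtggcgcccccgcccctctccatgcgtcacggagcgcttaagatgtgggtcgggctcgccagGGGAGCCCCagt
Plk2 (chr13:110394794-110395053, plus strand): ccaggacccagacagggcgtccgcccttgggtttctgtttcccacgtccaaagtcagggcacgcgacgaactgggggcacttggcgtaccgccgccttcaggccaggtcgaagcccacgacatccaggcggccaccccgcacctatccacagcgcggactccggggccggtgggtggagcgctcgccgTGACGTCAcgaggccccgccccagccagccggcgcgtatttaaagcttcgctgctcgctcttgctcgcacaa
The capitals in Fosb and Nr4a1 are matches to the NF-kB motif, of which 2 overlap in Fosb. In Tnfaip3 they are an AP-1 site (TGACTCA) and an NF-kB match, and in Plk2 a cyclic AMP response element (TGACGTCA). Over windows of 300 bases (250 before the start and 50 from it), TGACGTCA stood in 5.09% of the 216 matched promoters of genes at least 2-fold lower. It stood in 1.89% of the 212 of genes at least 2-fold higher, 3.38% of the 9295 matched promoters of tested genes and 1.88% of all 27025 promoters. In the 92 promoters of genes at least 4-fold lower the share was 7.61%, which is 7 promoters. The AP-1 site (TGACTCA or TGAGTCA, both strands) stood in 5.09% of promoters of the 2-fold lower and 4.72% of the 2-fold higher genes, beside 3.21% of tested genes and 5.17% of all promoters. NF-kB matches stood in 13.9%, 10.4%, 12.2% and 9.29% of the same sets, and CArG boxes, the serum response motif, in 1.39%, 2.83%, 1.26% and 1.57%. A match describes these letters and no binding was measured.

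The other immediate early lists moved the same way. In the EGR, IER and NR4A list 12 of 16 tested members were lower and 1 higher, with a median of -1.32. Nr4a1, an orphan nuclear receptor induced by T cell receptor signalling, read 958, 951 and 979 CPM in the untreated libraries and 53.6, 52.5 and 46.7 CPM in the MCC950 libraries (log2 fold change -4.24 ± 0.04, adjusted p = 2.10e-44). The lowest untreated library was over 900 CPM and the highest MCC950 library under 60 CPM. Csrnp1, a nuclear protein of immediate early kind, fell from 349 ± 9.86 to 59.8 ± 0.442 CPM (log2 fold change -2.54 ± 0.05, adjusted p = 1.57e-34). Nab2, a corepressor of EGR factors, was the member that rose, from 71.5 ± 2.52 to 81.2 ± 1.11 CPM (log2 fold change 0.18 ± 0.06, adjusted p = 0.01), a call that was lost without untreated replicate 3. All 11 tested Kruppel-like factors were lower (median -1.16). Klf4 fell from 59.2 ± 1.52 to 1.36 ± 0.357 CPM (log2 fold change -5.43 ± 0.15, adjusted p = 8.22e-29). Klf6 (chromosome 13, 5861482 to 5870394, plus strand) read 1640.0, 1631 and 1665 CPM in the untreated libraries and 149, 143 and 145 CPM in the MCC950 libraries (log2 fold change -3.50 ± 0.03, adjusted p = 1.01e-44). Klf2, which drives the homing receptors and quiescence of naive T cells, read 952, 964 and 990.2 CPM in the untreated libraries and 362, 349 and 363 CPM in the MCC950 libraries (log2 fold change -1.44 ± 0.03, adjusted p = 6.38e-33). The fold was smaller for Klf2 than for Klf4, and neither overlapped between groups.

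Inhibitors that these pathways induce against themselves were lower as well. Of 13 tested MAP kinase phosphatases and Sprouty-type inhibitors 11 were lower and 0 higher (median -1.50), against 19.1% and 17.7% of all genes tested. By library totals 9 were lower and 1 higher (median -1.38), and on log2(TPM + 1) 8 and 1 (median -0.566). Dusp1, which dephosphorylates p38 and JNK, read 572, 559.8 and 563 CPM in the untreated libraries and 36.4, 36.8 and 35.3 CPM in the MCC950 libraries (log2 fold change -3.96 ± 0.04, adjusted p = 2.35e-43). Dusp5, a nuclear phosphatase of ERK, fell from 227 ± 0.726 to 28.5 ± 1.48 CPM (log2 fold change -2.99 ± 0.06, adjusted p = 2.49e-34), and Dusp10 from 264 ± 7.24 to 47.2 ± 2.13 CPM (log2 fold change -2.48 ± 0.05, adjusted p = 1.39e-33). Of the NF-kB list 14 of 26 tested members were lower and 2 higher (median -0.17). By library totals 9 were lower and 4 higher (median -0.057), and on log2(TPM + 1) 8 and 2 (median -0.071). Tnfaip3, which encodes the ubiquitin-editing inhibitor A20 (chromosome 10, 19000910 to 19015657, minus strand), read 1387, 1387 and 1388 CPM in the untreated libraries and 72.6, 69.3 and 70.5 CPM in the MCC950 libraries (log2 fold change -4.29 ± 0.03, adjusted p = 1.47e-46). It was the largest loss among the NF-kB inhibitors named here. Nfkbia, the gene of the inhibitor IkB-alpha, fell from 272 ± 12.1 to 112 ± 5.29 CPM (log2 fold change -1.28 ± 0.04, adjusted p = 3.28e-25), and Nfkbid from 156 ± 3.36 to 36.7 ± 3.23 CPM (log2 fold change -2.09 ± 0.06, adjusted p = 3.76e-27). The kinase genes Ikbke and Ikbkb rose, from 462 ± 7.63 to 551 ± 3.67 CPM and from 356 ± 7.45 to 413 ± 5.67 CPM (adjusted p = 2.05e-09 and adjusted p = 3.93e-07).

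Of the G protein and cyclic AMP list 16 of 22 tested members were lower and 0 higher (median -0.29). Sik1, a salt-inducible kinase that holds back the CREB coactivators (chromosome 17, 31844250 to 31855804, minus strand), read 418, 436 and 456 CPM in the untreated libraries and 19.1, 21.6 and 18.7 CPM in the MCC950 libraries (log2 fold change -4.46 ± 0.05, adjusted p = 1.58e-41). Rgs1 and Rgs2, GTPase-activating proteins that end signalling from chemokine receptors, were also lower. Rgs1 fell from 49.0 ± 5.01 to 3.42 ± 0.884 CPM (log2 fold change -3.85 ± 0.14, adjusted p = 1.02e-23) and Rgs2 from 259.5 ± 7.53 to 20.4 ± 1.53 CPM (log2 fold change -3.67 ± 0.06, adjusted p = 7.22e-36). Plk2, a polo-like kinase, fell from 32.1 ± 3.42 to 2.01 ± 0.212 CPM (log2 fold change -3.99 ± 0.17, adjusted p = 4.20e-22). The groups of these 4 genes did not overlap.

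Heat shock transcripts were 4 of the 8 largest losses in CPM. Of 29 tested heat shock proteins and cochaperones 24 were lower and 0 higher, with a median of -0.96. The list's share of all counts was 2.41% ± 0.0123 in untreated and 1.03% ± 0.00816 in MCC950 libraries. Hspa8, the constitutive HSP70 chaperone (chromosome 9, 40800984 to 40810087, plus strand), read 5208, 5370.0 and 5316 CPM in the untreated libraries and 2658, 2704 and 2788 CPM in the MCC950 libraries (log2 fold change -0.96 ± 0.02, adjusted p = 1.21e-31). Hsp90ab1, an HSP90 chaperone, fell from 4229 ± 25.1 to 1897 ± 17.2 CPM (log2 fold change -1.16 ± 0.02, adjusted p = 9.10e-35) and its inducible relative Hsp90aa1 from 1857 ± 38.9 to 398 ± 13.6 CPM (log2 fold change -2.22 ± 0.03, adjusted p = 4.08e-40). Hsph1, an HSP110 exchange factor, read 1179, 1160.0 and 1165 CPM in the untreated libraries and 186, 192 and 191 CPM in the MCC950 libraries (log2 fold change -2.62 ± 0.03, adjusted p = 1.77e-41). Dnajb1, a J-domain partner of HSP70, fell from 979 ± 16.9 to 218 ± 8.0 CPM (log2 fold change -2.17 ± 0.03, adjusted p = 2.26e-36). Hspa1b and Hspa1a, the inducible HSP70 genes, are near-identical copies that the counting may split, so their separate values are uncertain. Hspa1b fell from 4665 ± 81.6 to 1685 ± 65.2 CPM (adjusted p = 9.61e-29) and Hspa1a from 2985 ± 37.6 to 620.3 ± 28.5 CPM (adjusted p = 6.69e-25).

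The heat shock element, searched as 3 alternating GAA and TTC units with 2 bases between them, stood in 16.0% of the 25 matched promoters of the heat shock list, which is 4 promoters, beside 0.409% of tested genes and 0.529% of all promoters. In genes at least 2-fold lower the share was 1.39% and in those at least 2-fold higher 0.472%. The promoter of Hspe1, the gene of the mitochondrial HSP10 chaperonin, was chosen after its values were seen, to show 2 overlapping matches in capitals.
Hspe1 (chr1:55087898-55088157, plus strand): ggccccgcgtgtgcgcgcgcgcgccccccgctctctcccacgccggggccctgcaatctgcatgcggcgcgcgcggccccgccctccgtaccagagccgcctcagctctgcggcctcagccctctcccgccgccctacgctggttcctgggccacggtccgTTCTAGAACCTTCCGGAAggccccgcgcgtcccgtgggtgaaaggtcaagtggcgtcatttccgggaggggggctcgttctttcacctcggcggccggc
Of 19 tested endoplasmic reticulum stress genes 5 were lower and 4 higher, shares near the 19.1% and 17.7% of all genes, and by library totals 5 were lower and 10 higher. Dnajb9, a cochaperone of BiP, fell from 114 ± 4.37 to 16.1 ± 2.05 CPM (log2 fold change -2.83 ± 0.08, adjusted p = 6.44e-28), and Hspa5, which encodes BiP, from 724 ± 15.5 to 331 ± 11.8 CPM (log2 fold change -1.13 ± 0.03, adjusted p = 1.83e-28). The disulfide isomerase gene Pdia4 rose from 78.1 ± 4.28 to 96.1 ± 1.77 CPM (log2 fold change 0.30 ± 0.05, adjusted p = 1.86e-05). Of the ATF4 list 7 of 20 tested members were lower and 5 higher, and its median turned from -0.04 to 0.075 under library totals and 0.03 on log2(TPM + 1). Atf4 itself, the factor of amino acid stress, fell from 350.1 ± 2.03 to 154 ± 7.63 CPM (log2 fold change -1.19 ± 0.04, adjusted p = 4.20e-26). Phgdh, a serine synthesis enzyme, and Aars, a tRNA synthetase, were among the 5 that rose, from 73.6 ± 5.45 to 88.5 ± 4.86 CPM and from 80.3 ± 3.53 to 96.5 ± 3.87 CPM (adjusted p = 5.08e-04 and adjusted p = 1.38e-04).

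Genes linked to quiescence fell on balance. Of the 22 tested antiproliferative and quiescence genes 16 were lower and 1 higher (median -0.52). Btg1, an antiproliferative partner of the deadenylase complex (chromosome 10, 96617006 to 96622809, plus strand), read 1960.0, 1933 and 1908 CPM in the untreated libraries and 894, 868 and 896 CPM in the MCC950 libraries (log2 fold change -1.13 ± 0.02, adjusted p = 5.11e-32), and Tob2 of the same family fell from 417 ± 7.75 to 99.0 ± 3.27 CPM (log2 fold change -2.07 ± 0.04, adjusted p = 1.10e-34). The mRNA decay list, which shares Btg1 and Tob2, had 12 of 16 tested members lower and 1 higher (median -0.66). Zfp36l2, which binds AU-rich elements, fell from 1127 ± 6.13 to 502 ± 10.3 CPM (log2 fold change -1.17 ± 0.03, adjusted p = 5.21e-31). The decapping enzyme gene Dcp2 rose from 70.0 ± 1.12 to 94.1 ± 5.47 CPM (log2 fold change 0.43 ± 0.06, adjusted p = 8.76e-08). Of 25 tested p53 targets and CDK inhibitors 18 were lower and 2 higher (median -0.71). Gadd45b, a stress sensor gene, fell from 64.0 ± 5.0 to 8.62 ± 1.21 CPM (log2 fold change -2.89 ± 0.11, adjusted p = 1.97e-23), and Cdkn1b, which encodes the CDK inhibitor p27, from 441 ± 5.16 to 252 ± 4.94 CPM (log2 fold change -0.81 ± 0.03, adjusted p = 3.92e-22).

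The factors that keep the naive state moved by smaller amounts. Of 20 tested naive T cell transcription factors 17 were lower and 2 higher (median -0.25). Foxp1 fell from 399.9 ± 3.56 to 282 ± 9.93 CPM (log2 fold change -0.51 ± 0.03, adjusted p = 2.84e-16) and Tcf7, which encodes TCF-1, from 1649 ± 33.3 to 1378 ± 17.3 CPM (log2 fold change -0.26 ± 0.02, adjusted p = 2.18e-11). Zbtb7b, the CD4 lineage factor ThPOK, rose from 243 ± 3.28 to 305 ± 14.8 CPM (log2 fold change 0.33 ± 0.04, adjusted p = 1.27e-09). Of the 16 tested glucocorticoid response genes 12 were lower and 1 higher (median -0.95), and of 18 core clock genes 11 were lower and 0 higher (median -0.39). Per1, which belongs to both lists, read 264, 279 and 293 CPM in the untreated libraries and 47.1, 42.4 and 43.7 CPM in the MCC950 libraries (log2 fold change -2.65 ± 0.06, adjusted p = 4.66e-27). Nfil3, a repressor tied to the clock, fell from 15.9 ± 2.2 to 1.74 ± 0.809 CPM (log2 fold change -3.20 ± 0.24, adjusted p = 1.82e-13).

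**Figure D3:**
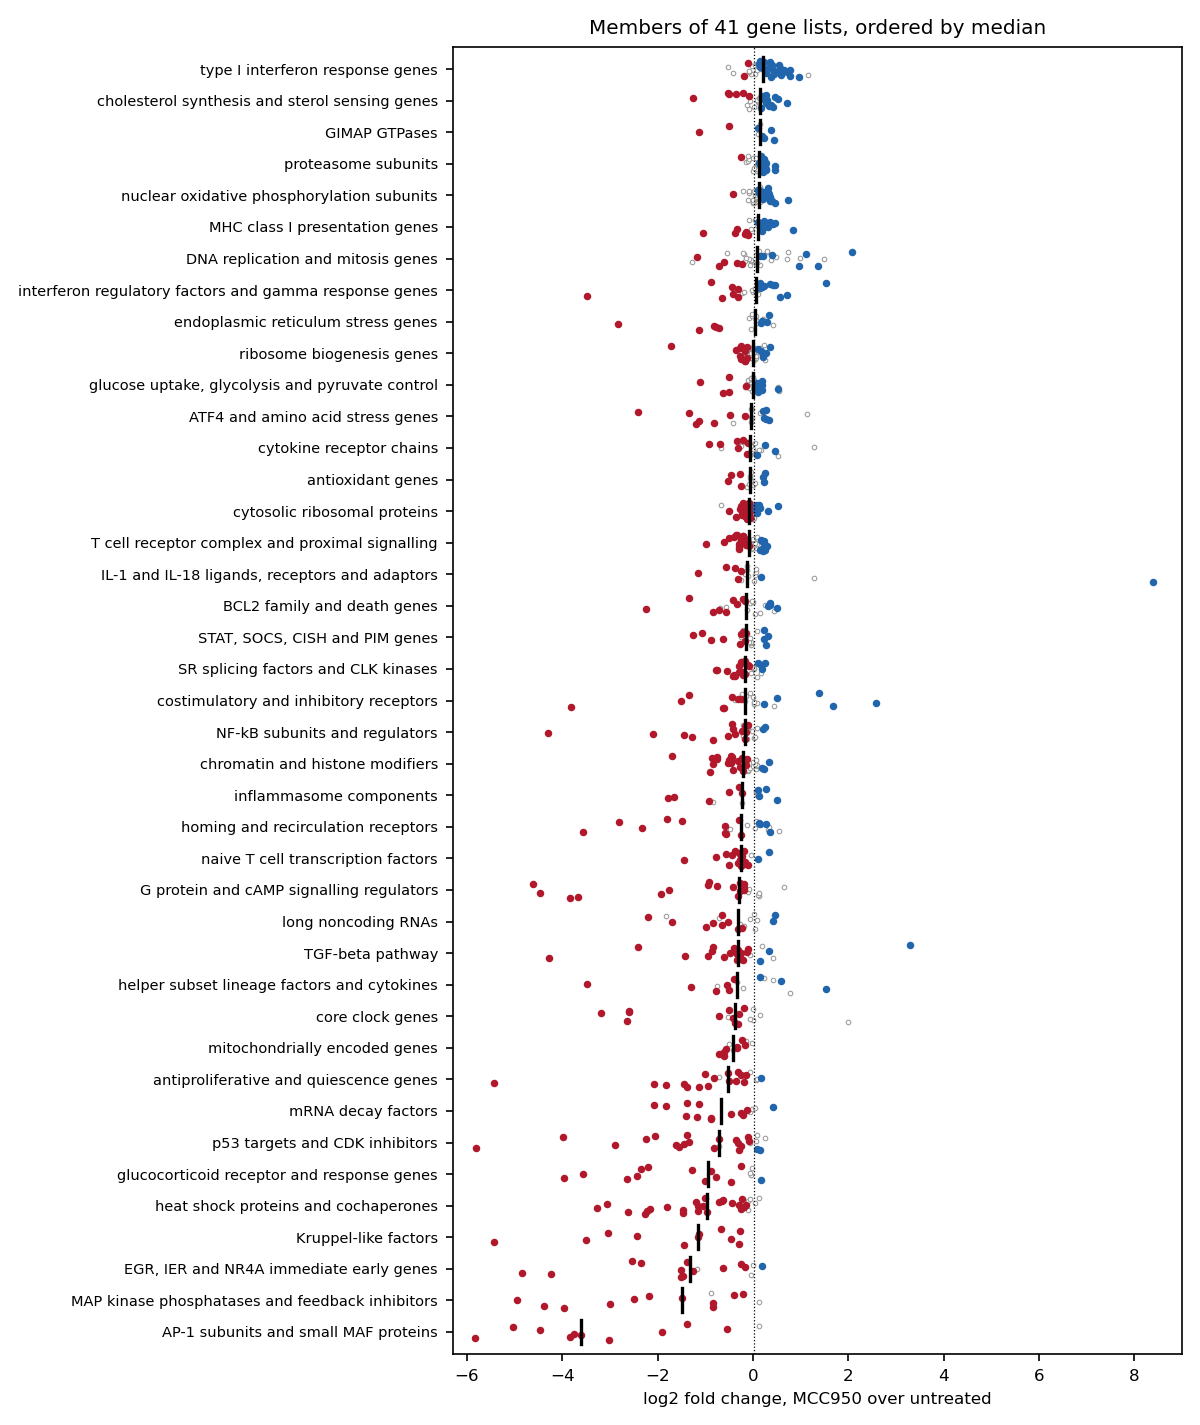
Log2 fold change of every tested member (points) of 41 gene lists, ordered by the list median (black tick). Red points are called lower, blue called higher, open points not called, and the dotted line is the median of all genes. The AP-1 median lies at -3.60 and the type I interferon median at 0.22, and lists share members.

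Several surface receptor genes were lower. Cxcr4, the receptor for the chemokine CXCL12 (chromosome 1, 128588199 to 128592293, minus strand), read 372, 371 and 373 CPM in the untreated libraries and 30.1, 33.4 and 31.3 CPM in the MCC950 libraries (log2 fold change -3.56 ± 0.05, adjusted p = 2.39e-39). Cd69, which holds T cells in tissue by removing a sphingosine phosphate receptor from the surface, read 402, 404 and 379 CPM in the untreated libraries and 52.8, 54.7 and 60.4 CPM in the MCC950 libraries (log2 fold change -2.82 ± 0.05, adjusted p = 9.86e-36). P2ry10, a receptor for lysophospholipids, fell from 238 ± 3.55 to 67.9 ± 0.864 CPM (log2 fold change -1.81 ± 0.04, adjusted p = 3.56e-30). Of the 21 tested homing and recirculation genes 10 were lower and 4 higher (median -0.24). Among all genes tested 19.1% were lower and 17.7% higher, the latter near the list's share. The 4 higher ones included the integrin genes Itgal (from 514 ± 13.4 to 618 ± 4.16 CPM, adjusted p = 5.78e-10) and Itgb7 (from 811 ± 14.6 to 902 ± 18.5 CPM, adjusted p = 2.23e-05, a call lost on log2(TPM + 1)) and S1pr4, a sphingosine phosphate receptor (from 168 ± 5.63 to 216 ± 6.53 CPM, adjusted p = 6.81e-08). By library totals 9 members of the list were lower and 7 higher (median -0.13).

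Costimulatory and inhibitory receptors were lower in 9 and higher in 5 of 25 tested members (median -0.17). Among all genes tested 19.1% were lower and 17.7% higher, the latter near the list's share. By library totals 9 were lower and 7 higher (median -0.056), and on log2(TPM + 1) 7 and 5 (median -0.045). Ctla4, which competes with CD28 for its ligands (chromosome 1, 60887000 to 60915832, plus strand), read 45.6, 42.0 and 44.2 CPM in the untreated libraries and 2.16, 2.90 and 4.28 CPM in the MCC950 libraries (log2 fold change -3.81 ± 0.17, adjusted p = 1.56e-17). Cd28 itself fell from 395 ± 16.7 to 260.0 ± 4.16 CPM (log2 fold change -0.60 ± 0.04, adjusted p = 2.96e-17), and Cd40lg, the ligand that helper cells show to B cells, from 141 ± 7.43 to 49.2 ± 0.673 CPM (log2 fold change -1.52 ± 0.06, adjusted p = 9.94e-24). Tigit, another inhibitory receptor gene, had 47 counts over the untreated libraries and 0 over those of MCC950, and was at least 15.4-fold lower against a floor of 3 counts over the MCC950 group. Tnfrsf9, the costimulatory receptor 4-1BB, rose from 0.868 ± 0.621 to 5.05 ± 0.442 CPM (log2 fold change 2.58 ± 0.32, adjusted p = 2.03e-08) and Pdcd1, the inhibitory receptor PD-1, from 1.45 ± 0.150 to 4.62 ± 0.429 CPM (log2 fold change 1.67 ± 0.28, adjusted p = 7.59e-06), both from low levels.

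Of 24 tested TGF-beta pathway genes 18 were lower and 3 higher (median -0.32). Bambi, a decoy receptor of the pathway, fell from 19.9 ± 1.81 to 1.02 ± 0.483 CPM (log2 fold change -4.28 ± 0.24, adjusted p = 6.75e-18), and Tgif1, a repressor of SMAD targets, from 97.8 ± 0.871 to 18.4 ± 0.632 CPM (log2 fold change -2.41 ± 0.07, adjusted p = 6.19e-27). Acvrl1, a type I receptor of the TGF-beta family (chromosome 15, 101128522 to 101145336, plus strand), was not on the list. It read 16.8, 20.3 and 19.0 CPM in the untreated libraries and 1.17, 0.740 and 1.98 CPM in the MCC950 libraries (log2 fold change -3.85 ± 0.22, adjusted p = 4.86e-14). Itgae, the integrin chain CD103 and among the 3 higher members, rose from 0.312 ± 0.201 to 3.21 ± 0.474 CPM (log2 fold change 3.30 ± 0.43, adjusted p = 5.33e-08). It passed the filter through treated libraries alone, so its call is no separate support for the rise. Of 15 tested helper subset genes 6 were lower and 3 higher (median -0.33), against 19.1% and 17.7% of all genes tested. Irf4, a factor of activated T cells, read 59.2, 66.1 and 64.2 CPM in the untreated libraries and 6.01, 5.33 and 5.60 CPM in the MCC950 libraries (log2 fold change -3.48 ± 0.11, adjusted p = 8.19e-26). Gata3, the type 2 helper factor that naive cells also express, fell from 89.2 ± 0.845 to 52.3 ± 2.16 CPM (log2 fold change -0.77 ± 0.06, adjusted p = 1.18e-13). Tbx21, the type 1 factor, was not called (0.397 ± 0.344 to 0.70 ± 0.132 CPM, adjusted p = 0.43).

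Rises among abundant transcripts were small. Actb, which encodes beta-actin (chromosome 5, 142903115 to 142906754, minus strand), was the largest gain in CPM among named genes. It read 3801, 3774 and 3878 CPM in the untreated libraries and 5326, 5130.0 and 5183 CPM in the MCC950 libraries (log2 fold change 0.45 ± 0.02, adjusted p = 3.56e-21). Myh9, the non-muscle myosin heavy chain, rose from 2617 ± 25.7 to 3010.0 ± 70.3 CPM (log2 fold change 0.20 ± 0.02, adjusted p = 7.11e-10), Macf1, a linker of actin and microtubules, from 2451 ± 6.53 to 2796 ± 31.4 CPM (log2 fold change 0.19 ± 0.02, adjusted p = 1.07e-09), and Coro1a, a coronin that binds actin, from 1595 ± 40.5 to 1886 ± 43.6 CPM (log2 fold change 0.24 ± 0.03, adjusted p = 6.20e-10). Arhgef1, a guanine nucleotide exchange factor, rose from 2339 ± 15.1 to 2739 ± 56.4 CPM (log2 fold change 0.23 ± 0.02, adjusted p = 1.09e-10). Ogt, the enzyme that adds N-acetylglucosamine to intracellular proteins (chromosome X, 101640060 to 101684351, plus strand), had the largest fold among the 8 leading CPM gains and read 370.1, 360.5 and 367 CPM in the untreated libraries and 674, 696 and 676 CPM in the MCC950 libraries (log2 fold change 0.90 ± 0.03, adjusted p = 1.44e-25). Kmt2d, a histone H3 lysine methyltransferase gene, rose from 1054 ± 14.1 to 1339 ± 28.6 CPM (log2 fold change 0.34 ± 0.03, adjusted p = 6.68e-13) although 19 of 32 tested chromatin genes were lower and 3 higher.

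Of 42 tested type I interferon response genes 24 were higher and 2 lower, against 17.7% and 19.1% of all genes, with a median of 0.22. Of 26 tested interferon regulatory factors and gamma response genes 10 were higher and 7 lower (median 0.06). Ifit1, an antiviral RNA-binding protein gene, read 15.5, 15.5 and 11.9 CPM in the untreated libraries and 27.9, 26.6 and 29.2 CPM in the MCC950 libraries (log2 fold change 0.97 ± 0.11, adjusted p = 4.05e-09). Lgals3bp rose from 62.4 ± 0.815 to 91.1 ± 1.95 CPM (log2 fold change 0.55 ± 0.06, adjusted p = 2.26e-10) and Slfn5 from 145 ± 5.57 to 185 ± 5.84 CPM (log2 fold change 0.35 ± 0.04, adjusted p = 5.25e-09). Ifit2 fell from 97.2 ± 1.32 to 85.0 ± 2.09 CPM (adjusted p = 0.00316), a call lost under library totals and on log2(TPM + 1). Of 31 tested proteasome subunits 15 were higher and 1 lower (median 0.14), led by Psmb5 (from 38.7 ± 3.78 to 53.5 ± 2.94 CPM, adjusted p = 3.33e-06) and Psma5 (from 35.5 ± 4.0 to 48.6 ± 2.38 CPM, adjusted p = 1.08e-05). Among MHC class I presentation genes 11 of 24 tested members were higher and 6 lower (median 0.10). The immunoproteasome genes Psmb8 and Psmb9 rose, from 256 ± 6.28 to 342 ± 14.8 CPM and from 124 ± 1.18 to 170.3 ± 7.69 CPM (adjusted p = 6.31e-12 and adjusted p = 8.23e-12), whereas B2m, the shared light chain of class I molecules, fell from 1323 ± 23.2 to 1047 ± 14.2 CPM (adjusted p = 4.57e-14).

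Nuclear and mitochondrial genes of the respiratory chain moved apart. Of 48 tested nuclear oxidative phosphorylation subunits 18 were higher and 1 lower (median 0.12). Cyc1, a complex III subunit, rose from 67.4 ± 5.31 to 85.6 ± 2.6 CPM (log2 fold change 0.34 ± 0.06, adjusted p = 1.43e-05), a call lost on log2(TPM + 1), and Uqcrc1 of the same complex from 121 ± 2.16 to 142 ± 3.08 CPM (log2 fold change 0.23 ± 0.04, adjusted p = 3.10e-05). Of the 13 mitochondrially encoded genes 8 were lower and 0 higher (median -0.41). Their share of all counts was 2.04% ± 0.0423 in untreated and 1.71% ± 0.0208 in MCC950 libraries. mt-Co1, a complex IV subunit, read 8987, 8925 and 8699 CPM in the untreated libraries and 6809, 7332 and 7030.0 CPM in the MCC950 libraries (log2 fold change -0.33 ± 0.02, adjusted p = 2.24e-10). mt-Nd5, of complex I, read 1447, 1488 and 1445 CPM in the untreated libraries and 974, 1002 and 996 CPM in the MCC950 libraries (log2 fold change -0.56 ± 0.03, adjusted p = 3.02e-21). Of 86 tested cytosolic ribosomal protein genes 43 were lower and 9 higher, with a median of -0.07. By library totals the family's median was 0.04, with 10 lower and 37 higher, and on log2(TPM + 1) it was 0.02. No direction is therefore given for that family, whose pseudogenes also share reads. Cholesterol synthesis and sterol genes were higher in 12 and lower in 6 of 30 (median 0.15), against 17.7% and 19.1% of all genes tested. Insig1, which retains the sterol sensor in the endoplasmic reticulum, fell from 102 ± 5.43 to 42.4 ± 1.52 CPM (log2 fold change -1.26 ± 0.07, adjusted p = 3.35e-18).

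Survival and receptor signalling genes went both ways. Of 24 tested BCL2 family and death genes 9 were lower and 4 higher (median -0.14), against 19.1% and 17.7% of all genes tested. By library totals 6 were lower and 6 higher (median -0.025), and on log2(TPM + 1) 7 were lower and 3 higher. Mcl1, a short-lived survival protein gene, fell from 1029 ± 4.11 to 579 ± 7.74 CPM (log2 fold change -0.83 ± 0.03, adjusted p = 5.02e-26), and Bax, which permeabilizes mitochondria, rose from 63.3 ± 3.61 to 78.2 ± 3.89 CPM (log2 fold change 0.31 ± 0.06, adjusted p = 1.07e-04). Of 37 tested genes of the T cell receptor complex and proximal signalling 18 were lower and 9 higher (median -0.08). By library totals 13 were lower and 18 higher (median 0.03), and on log2(TPM + 1) 10 and 13 (median 0.01), so no direction is given for the list. Themis, which sets the receptor's signalling threshold in thymocytes, fell from 279 ± 5.12 to 184 ± 2.64 CPM (log2 fold change -0.61 ± 0.04, adjusted p = 1.57e-16). The CD3 chain gene Cd3d and the adaptor gene Lat rose, from 285 ± 1.71 to 342 ± 9.73 CPM and from 541 ± 17.7 to 634 ± 24.7 CPM (adjusted p = 1.45e-08 and adjusted p = 1.21e-07).

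Transcripts of the target of MCC950 and of the IL-1 receptor were at or near 0, while 14 of 20 inflammasome components passed the filter. Nlrp3 had 0 counts in the 3 untreated libraries and 5, 4 and 9 counts in the MCC950 libraries, too few to test. Il1r1, the signalling receptor of IL-1, had 0 counts in the untreated libraries and 0, 7 and 0 in the MCC950 libraries. Il1b (chromosome 2, 129364570 to 129371139, minus strand) had 0 counts in each untreated library and 38, 57 and 35 counts in the MCC950 libraries, at least 44.3-fold higher against a floor of 3 counts over the untreated group. This bound covers counting error only. Casp1, the inflammasome protease, read 6.28, 7.32 and 4.39 CPM in the untreated libraries and 1.87, 1.53 and 1.87 CPM in the MCC950 libraries (log2 fold change -1.77 ± 0.27, adjusted p = 1.58e-06). Pycard, which encodes ASC, rose from 47.1 ± 1.78 to 66.3 ± 1.91 CPM (log2 fold change 0.50 ± 0.06, adjusted p = 4.54e-08). Of 14 tested inflammasome components 6 were lower and 4 higher (median -0.23), against 19.1% lower and 17.7% higher among all genes tested. By library totals 4 were lower and 5 higher (median -0.115), so no direction is given for the list. Aim2, a DNA sensor, read 46.4, 46.5 and 46.5 CPM in the untreated libraries and 23.3, 25.4 and 24.8 CPM in the MCC950 libraries (log2 fold change -0.92 ± 0.08, adjusted p = 1.81e-12). Of 17 tested IL-1 and IL-18 ligands, receptors and adaptors 5 were lower and 2 higher (median -0.13), beside the same 19.1% and 17.7% of all genes. The higher ones were Sigirr and Il1b, and Il1b passed the filter through treated libraries alone. By library totals 5 were lower and 4 higher (median -0.012), and on log2(TPM + 1) 2 and 1 (median -0.004). No direction is therefore given for this list either. Irak3, a pseudokinase that restrains the receptor complex, fell from 11.6 ± 0.329 to 5.22 ± 1.02 CPM (log2 fold change -1.15 ± 0.18, adjusted p = 1.88e-06).

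With MCC950, marker transcripts of several other cell types were higher, and their part in the results was not tested. Of 21 B cell markers, all tested, 20 were higher, and their summed level was 24.9 to 31.1 CPM in untreated and 132 to 159 CPM in MCC950 libraries, with no marker at 0 in either group. The filter ran over all 9 libraries, so a marker scarce in untreated libraries could pass through treated ones alone. Counts of calls in marker lists are therefore no separate support. The B cell markers include the MHC class II genes among the 12 largest named rises. H2-Aa (chromosome 17, 34282744 to 34287823, minus strand) read 1.58, 2.82 and 1.73 CPM in the untreated libraries and 14.7, 12.5 and 14.4 CPM in the MCC950 libraries (log2 fold change 2.74 ± 0.19, adjusted p = 6.46e-15). H2-Ab1 rose from 2.46 ± 0.602 to 13.6 ± 3.55 CPM (log2 fold change 2.47 ± 0.20, adjusted p = 4.53e-13), H2-Eb1 from 2.08 ± 0.587 to 10.6 ± 1.69 CPM (log2 fold change 2.33 ± 0.21, adjusted p = 4.05e-12) and the invariant chain gene Cd74 from 9.98 ± 2.34 to 43.6 ± 4.30 CPM (log2 fold change 2.12 ± 0.11, adjusted p = 1.42e-16). The 16 neutrophil markers summed to 1.16 to 1.34 and 18 to 20 CPM. The filter kept 9 of them, 4 of which had 0 untreated counts and so passed through the treated libraries alone. No count of calls is given for this list, nor for the monocyte and red cell lists. In untreated libraries 10 of the 16 were at 0, among them Ly6g, S100a8 and Ltf, and with MCC950 Elane and Il1r2 were. Csf3r, the receptor of the neutrophil growth factor, read 0, 0.0989 and 0.105 CPM in the untreated libraries and 5.02, 2.90 and 3.84 CPM in the MCC950 libraries.

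The 21 monocyte, macrophage and dendritic cell markers, of which 10 passed the filter, summed to 9.69 to 11.5 and 24.7 to 28.1 CPM. Batf3, Clec9a and Vcam1 were at 0 in untreated and Clec9a and Siglech at 0 in MCC950 libraries. The 8 red cell markers, of which 4 passed the filter, summed to 0.122 to 0.445 and 6.13 to 10.5 CPM. Hba-a1, Hbb-bs, Hbb-bt, Epb42 and Slc4a1 were at 0 in untreated libraries, and the globin copies share reads. Of 13 cytotoxic T and NK cell markers 3 of 9 tested were higher, with sums of 68.0 to 75.5 and 102 to 107 CPM. Klrb1c, Klre1 and Ncr1 were at 0 in untreated libraries. Cd8a, a chain of the cytotoxic co-receptor (chromosome 6, 71373427 to 71379173, plus strand), was the first of the 12 largest named rises. It read 1.28, 0.792 and 0.837 CPM in the untreated libraries and 19.9, 20.6 and 18.5 CPM in the MCC950 libraries (log2 fold change 4.35 ± 0.19, adjusted p = 1.46e-21). Cd8b1, the other chain, rose less, from 12.5 ± 1.83 to 23.1 ± 1.68 CPM (log2 fold change 0.89 ± 0.12, adjusted p = 5.43e-08). Of 5 platelet markers 1 was tested and it was not called. Their sums were 2.01 to 3.35 and 1.81 to 3.64 CPM, which overlap, with Gp1bb, Pf4 and Ppbp at 0 in both groups and Gp9 at 0 in untreated libraries.

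Markers of other T cell states were mixed. The 8 regulatory T cell markers summed to 90.3 to 95.7 and 56.2 to 59.0 CPM, with Ctla4 and Tigit lower and 3 members higher. Foxp3, the factor that defines regulatory T cells, rose from 15, 6 and 8 counts to 40, 25 and 19 counts (log2 fold change 1.54 ± 0.57, adjusted p = 0.03), a call lost on log2(TPM + 1) and without untreated replicate 2 or 3 or MCC950 replicate 1 or 2. The 12 activated or memory markers summed to 130 to 151 and 145 to 161 CPM, which overlap. The 6 plasma cell markers summed to 129 to 137 and 48.6 to 54.1 CPM, with Irf4 and Xbp1 lower, genes that T cells also express, while Jchain rose from 0.127 ± 0.0800 to 1.66 ± 0.613 CPM (log2 fold change 3.64 ± 0.64, adjusted p = 1.35e-05). Jchain passed the filter through treated libraries alone. Top2a, a topoisomerase of dividing cells, rose from 3.64 ± 0.699 to 9.37 ± 0.251 CPM (log2 fold change 1.36 ± 0.19, adjusted p = 1.31e-07), a call lost on log2(TPM + 1). Of 37 tested replication and mitosis genes 7 were higher and 5 lower, against 17.7% and 19.1% of all genes.

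**Figure D4:**
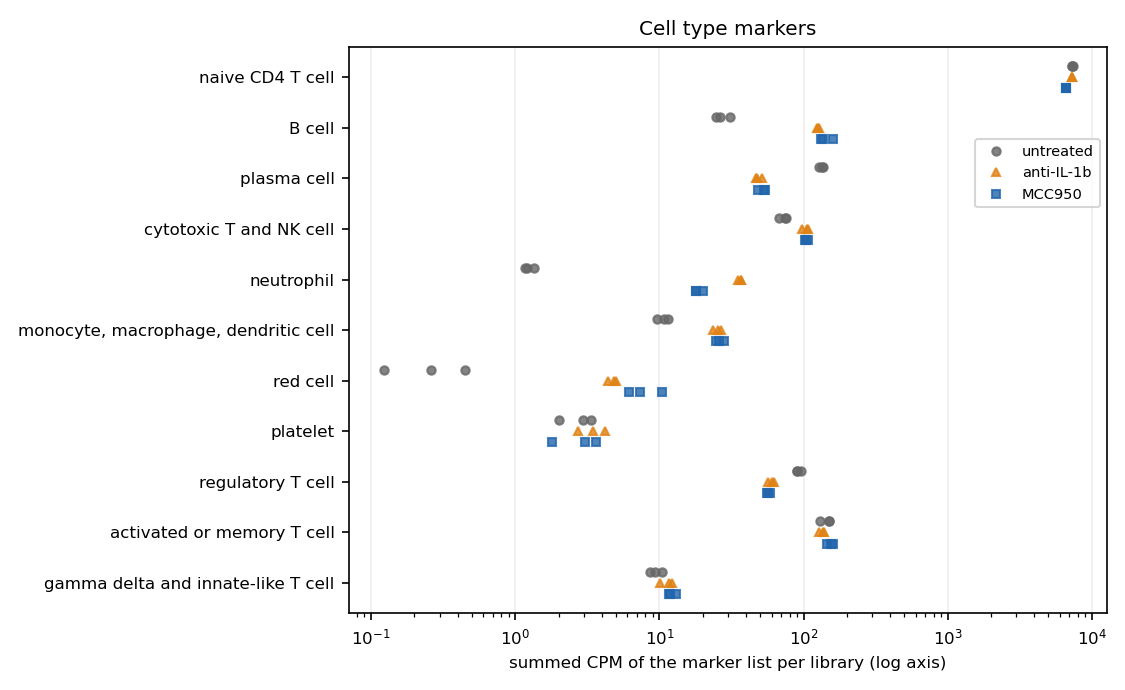
Summed CPM of each marker list per library (points, log axis) in untreated, anti-IL-1b and MCC950 libraries. B cell, neutrophil, monocyte and red cell sums are higher in all 3 MCC950 libraries than in any untreated library, and naive CD4 sums fall from at least 7259 to at most 6622 CPM.

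The antibody libraries offered a second treated group. They share the untreated controls with the comparison above, so their own values are given side by side, and the treatments were tested directly against each other. MCC950 and antibody libraries differed in 1771 genes (13.2% of 13374). Among the 12 largest named rises and 12 largest named falls, Eps8l1, an EPS8-related signalling adaptor (chromosome 7, 4460674 to 4480487, plus strand), differed most. It read 16.8, 15.9 and 13.0 CPM in the untreated libraries and 76.6, 72.7 and 75.1 CPM in the MCC950 libraries, and 1.69, 2.26 and 2.69 CPM in the antibody libraries, so the treatments lay on opposite sides of the untreated level (log2 difference 5.09 ± 0.13, adjusted p = 3.97e-28). Acvrl1 was at 21.7 ± 4.70 CPM with the antibody and lower with MCC950 (log2 difference -4.07 ± 0.22, adjusted p = 1.49e-13). Lypd6b was higher with MCC950, from 8.17 ± 1.31 to 29.9 ± 0.638 CPM, than with the antibody, 16.8 ± 2.06 CPM (log2 difference 0.83 ± 0.12, adjusted p = 2.45e-06). Fosb was at 46.0 ± 0.278 CPM with the antibody and lower with MCC950 (log2 difference -1.94 ± 0.06, adjusted p = 3.29e-25), and Klf4 at 3.60 ± 0.284 CPM with the antibody and also lower with MCC950 (log2 difference -1.40 ± 0.19, adjusted p = 1.16e-06). For Sik1, Maff, Plk2 and Cd8a no difference was called between the treatments, with log2 differences of -0.07 ± 0.07, -0.08 ± 0.26, -0.10 ± 0.21 and 0.02 ± 0.13.

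Over all 13374 genes, 951 (7.11%) were higher and 820 (6.13%) lower with MCC950 than with the antibody, which is the background for the lists that follow. All 8 mitochondrially encoded genes that differed were lower with MCC950 than with the antibody, and none was higher. mt-Nd5 was at 1400.0 ± 33.2 CPM with the antibody (log2 difference -0.50 ± 0.03, adjusted p = 3.48e-18) and mt-Nd2 at 958 ± 30.4 CPM (log2 difference -0.44 ± 0.03, adjusted p = 1.60e-15). Of 29 heat shock genes 19 were higher and 1 lower with MCC950 than with the antibody. Hsph1 was at 126 ± 3.47 CPM with the antibody (log2 difference 0.59 ± 0.03, adjusted p = 2.65e-17) and Hspa8 at 2237 ± 28.4 CPM (log2 difference 0.28 ± 0.02, adjusted p = 7.41e-13). Of 86 ribosomal protein genes 54 were higher and 2 lower than with the antibody, among them Rps3, at 2052 ± 63.1 CPM with the antibody and higher with MCC950 (log2 difference 0.39 ± 0.02, adjusted p = 3.27e-16). Of 20 naive T cell factors 13 were lower and 1 higher than with the antibody, with Tcf7 at 1627 ± 39.9 CPM (log2 difference -0.24 ± 0.02, adjusted p = 1.48e-09). Actb was higher with MCC950 than with the antibody (4267 ± 59.7 CPM; log2 difference 0.29 ± 0.02, adjusted p = 6.21e-14). Il1b was lower with MCC950 than with the antibody (7.22, 4.51 and 6.83 CPM; log2 difference -1.37 ± 0.31, adjusted p = 0.00205), and the neutrophil sums were 34.9 to 37.0 CPM with the antibody.

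**Figure D5:**
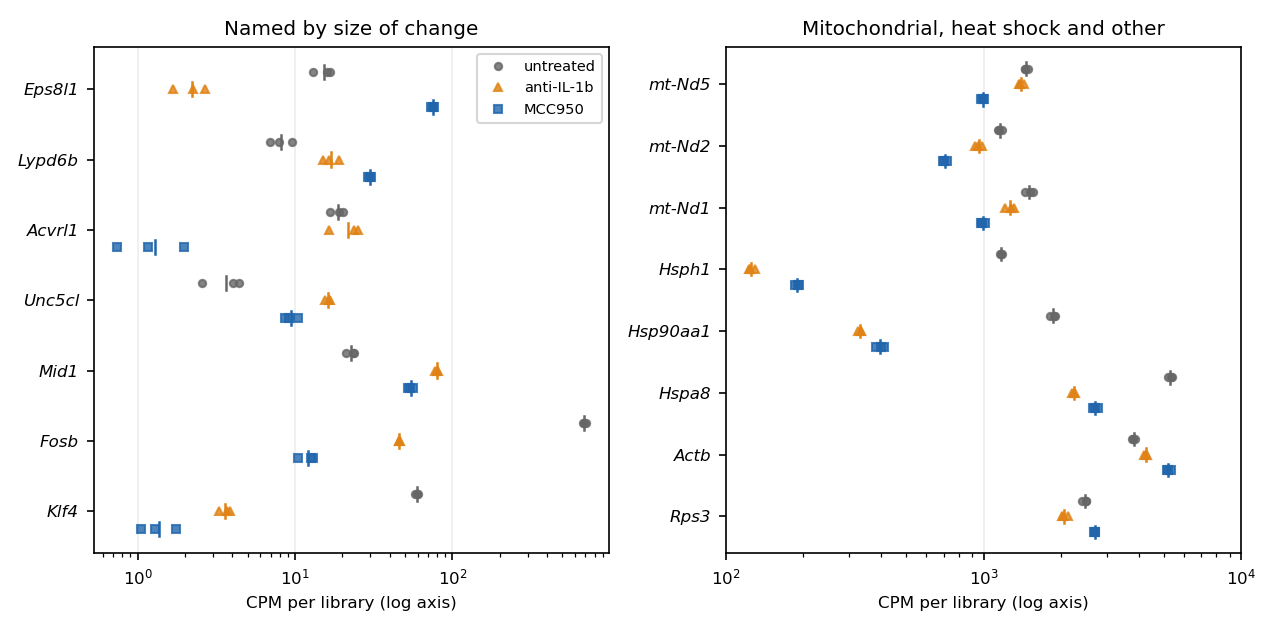
CPM of each library (points, log axis) and group mean (tick) for named genes that differed between MCC950 and antibody libraries in the direct test. Eps8l1 lies above the untreated level with MCC950 and below it with the antibody, and the 3 mitochondrial genes are lowest with MCC950.

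With the genes cut into 5 equal bins by transcript length, the median log2 fold change went from 0.08 in the shortest through 0.06, 0.03 and -0.02 to -0.07 in the longest, and the share of genes called lower from 9.57% to 32.2%. The share called higher went from 17.5% to 14.6%. In 5 bins by untreated mean CPM the median went from 0.22 in the lowest to -0.08 in the highest. The share called lower went from 3.03% to 46.4% and the share called higher from 12.6% to 19.8%. The untreated level also enters the fold change itself. The lowest bin ran from 0 to 2.044 CPM and held 322 of the 380 genes at least 2-fold higher. Genes scarce in untreated libraries could pass the filter through treated libraries alone, in these bins and in the transcript classes below. The part of length, level or filter in the calls was not tested. Against 17.7% higher and 19.1% lower among all genes, 14.9% of 443 tested antisense transcripts were higher and 4.51% lower. Of 257 lincRNAs 22.2% were higher and 8.95% lower, and of 388 processed pseudogenes 4.12% and 12.1%. No source used here states whether counting was by strand, so antisense values are uncertain. An untreated library held 16835 ± 71.5 genes with any count and an MCC950 library 17408 ± 61.8.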

How the data were processed

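RNA of splenic naive CD4+ T cells was sequenced in 9 libraries, 3 per group. The authors aligned and quantified reads with STAR and RSEM on mm10, per the submitters' processing notes, with versions not given in the sources used here, and deposited expected counts and TPM per gene. Gene names were attached here by gene ID from a GENCODE annotation, and 260 of the 55487 IDs had no name in it. Expected counts were rounded to whole numbers, scaled by TMM and filtered by filterByExpr, and fitted with edgeR 4.0.16 (robust quasi-likelihood, R 4.3.3) as group means over all 9 libraries. MCC950 was contrasted with untreated, and with anti-IL-1b for direct tests, at a Benjamini-Hochberg adjusted p under 0.05. Deposited TPM values entered limma 3.58.1 as log2(TPM + 1) as an alternative, and DESeq2 1.42.0 was another. Replicates differed beyond sampling noise (chi-square per degree of freedom 3.80 to 4.87), so none was merged. The steps were tested on simulated data.

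Named genes are the 12 largest rises and falls (mean log2 CPM of at least 2, groups not overlapping), the 8 largest CPM gains and losses, up to 3 members by smallest p per list and direction, and fixed checks; predicted genes and pseudogenes were counted only. Unnamed genes passed over in this ranking were 9 among the rises, 3 among the falls and 1 among the CPM gains. Members and lists were chosen with earlier results of these data known. Some genes that this rule names are not reported here.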

Additional observations from a re-analysis of the deposited data

How the results depend on the processing

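Across 20 alternatives and an adjusted p of 0.10, each count of genes called stayed within 1.5 times its own main value except as follows. Under library totals 4009 genes were higher and 1587 lower. On log2(TPM + 1) with limma 3263 genes were called, 1094 of them lower, 386 at 2-fold or more, and 572 between MCC950 and anti-IL-1b. Leaving out each replicate in turn gave 4201 to 5021 called genes, 2002 to 2421 higher, 2199 to 2600 lower, 698 to 796 at 2-fold or more and 1246 to 1763 between the treatments. The log2 fold change of Il7r turned to 0.052 under library totals and 0.042 on log2(TPM + 1), and that of Cd4 to 0.068 and 0.027. Of the 119 called genes named here, 117 had a value under all 20 alternatives. Of these, 110 kept direction and call in all 20 and 7 lost the call under at least 1, while Tigit and Vcam1 were filtered out of some. With the replicate number as a block 4855 genes were called. The numbers do not show pairing: deviations of same-numbered libraries correlated at -0.10, -0.05 and -0.04. Depth limits the scarce genes most, such as Nlrp3 and Il1r1, which could not be tested.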

Other observations

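Of the genes outside the naming rule, 2 were chosen after their values were seen. Slc15a2, a peptide transporter gene, stood at 17.2 CPM in untreated, 40.2 CPM in MCC950 and 2.58 CPM in anti-IL-1b libraries (means of 3). G530011O06Rik, a long noncoding transcript, stood at 0.63 CPM in untreated, 75.6 CPM in MCC950 and 147 CPM in anti-IL-1b libraries.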
